A study of Rattus norvegicus with 9 samples.

Results

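The genes described here encode 7 subunits of the GABA-A receptor, the alpha subunits Gabra2, Gabra3, Gabra4 and Gabra5, the beta subunits Gabrb1 and Gabrb2, and the delta subunit Gabrd. They were measured in dendrites severed from cultured rat hippocampal neurons. Each gene was read from all probe sets that name only one of these genes in the platform's gene table. This gave 10 of the 31042 probe sets analysed, and 7 of 14217 genes with the probe sets of a gene combined by their median. Gabrd had 3 probe sets, Gabrb2 had 2 and each other gene had 1. The rule for the choice of genes used no measured value, but the choice was made with earlier results of these data known.

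RNA from each pool of dendrites was amplified linearly and hybridised to 1 Affymetrix rat expression array, and the 9 arrays comprised 3 of 100 dendrites, 3 of 200 and 3 of 400. All pools came from primary cultures of hippocampal neurons taken from Sprague-Dawley rats at embryonic day 19 and grown for 14 days, without any treatment. The labels call the cells pyramidal neurons, and each pool mixed dendrites of several cells. The number of dendrites is the only difference between pools that the labels give. Axons cannot be told from dendrites by shape at collection, so the pools may hold some axonal RNA. Values are log2 signals from RMA, a method that removes background, gives all arrays a like distribution and summarises the probes of each probe set. A difference of 1 is thus a doubling of signal. Probes differ in affinity, so the order of genes below is an order of signal rank and not of RNA amount.

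GABA-A receptors are chloride channels opened by GABA, the main inhibitory transmitter of the mature brain. Each channel is a ring of subunits, in which alpha and beta subunits form the GABA binding sites, and a gamma or delta subunit sets where the receptor sits and how it responds to drugs. Receptors with gamma subunits gather at inhibitory synapses, while those with delta, and many of those with alpha5, lie outside synapses, where they carry a tonic current in response to ambient GABA. In the hippocampus, alpha5 is known as a subunit of pyramidal neurons, and delta, paired with alpha4, as one of dentate granule cells.

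The 9 arrays had medians of 7.46 to 7.53, and pairs of arrays correlated at r = 0.68 to 0.88 over probe sets. Signal of the control transcript GAPDH was higher at its 3′ end than at its 5′ end by 0.84 to 2.99, which measures how far amplified RNA was shortened. For a second control transcript, beta-actin, the same gap ran from -0.43 to 2.41. Both gaps overlapped between pool sizes. The labelled cell type was checked against marker lists. Of 9 pyramidal neuron markers measured, with a median percentile of 73.7, 3 were in the top 5% of genes by median rank, namely Neurod2, a factor for excitatory neuron differentiation, at 13.60 ± 0.18 (SD, n = 9), Nrgn, which encodes a calmodulin-binding protein, at 12.18 ± 0.17, and Bhlhe22. Camk2a, which encodes a kinase of excitatory synapses, and Emx1, a factor of the developing cortex, stood at percentiles 28.8 and 31.6, and Tbr1, of deep-layer cortical neurons, at 2.44. The list also held Prox1, a factor best known from dentate granule cells and not from pyramidal neurons. It stood at 73.7, which is the median of the list. Of 10 interneuron markers, 0 were in the top 5% and 5 were above the 50th percentile, with a median percentile of 46.0. Calb2, which encodes calretinin, was highest at percentile 86.7 and in the top 5% on 2 arrays, followed by Sst, which encodes somatostatin, at 64.6. The genes for GABA production and packaging were low, with Slc32a1, the vesicular GABA transporter, at percentile 11.6, Gad1 at 13.7 and Gad2 at 15.6. The median signal of the interneuron list on an array was 7.20 to 7.63 in the 100-dendrite pools, 6.58 to 6.76 in the 200-dendrite pools and 7.23 to 7.63 in the 400-dendrite pools, so that the 200-dendrite pools lay below the others. For 200 against 100 dendrites 2 of its 10 genes had a limma unadjusted p under 0.05, against 3.03% of all genes. These were Dlx1, which differed by -1.25, and Vip, which differed by -1.16. Of the 10 genes, 9 were lower and 1 was higher in the 200-dendrite pools. Gad2, Slc32a1 and Gad1 differed by -0.48, -0.24 and -0.02. For 400 against 200 dendrites 2 of the 10 again had a limma unadjusted p under 0.05, against 2.3% of all genes. In that comparison 7 were higher and 3 lower in the larger pools. After adjustment 0 genes passed in either comparison, and the list as a whole was not tested. Astrocyte markers had 0 of 9 genes in the top 5% and a median percentile of 74.9, with list medians of 7.62 to 9.44, 6.97 to 8.50 and 7.30 to 9.31 in the 3 pool sizes. S100b, a calcium-binding protein, was highest at percentile 90.1, followed by Slc1a3, a glutamate transporter, at 86.9, Gja1, a gap junction protein, at 86.7 and Gfap, of astrocyte filaments, at 84.1, while Aqp4, a water channel, was the lowest of the list. Counted by array, Gfap was in the top 5% on 3 arrays, S100b on 2 and Aldoc, also of this list, on 1. Signals ran from 6.33 to 11.33 for Gfap and from 6.44 to 11.03 for S100b. Microglial and oligodendrocyte lineage markers had 0 of 9 each in the top 5%, with median percentiles of 31.0 and 57.9. Of 7 endothelial markers, with a median percentile of 52.6, 2 were in the top 5% by median rank and on 9 of 9 arrays. These were Vwf at 12.89 ± 0.20 (percentile 99.8), above Nrgn in signal, and Esam at 11.61 ± 0.29 (percentile 98.5). Tek, the angiopoietin receptor, was the lowest of the list at percentile 11.2. The part of other cell types in the subunit signals was not tested, and in such pools fewer dendrites of a type and less RNA per dendrite cannot be told apart.

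Gabra5 gave the highest signal rank of the 7 subunits on every array, and Gabrb1 was next on every array. Gabra5 stood at a median percentile of 98.6 among all genes of an array (lowest 95.6, highest 99.6), so it was in the top 5% on 9 of 9 arrays. Gabrb1 had a median percentile of 94.3 (85.3 to 99.5) and reached the top 5% on 2 of 9 arrays. Gabrd followed at 77.2 (57.7 to 87.0), Gabrb2 at 49.8 (35.9 to 63.2), Gabra4 at 33.3 (3.42 to 66.0), Gabra3 at 9.42 (4.62 to 55.4) and Gabra2 at 8.07 (4.33 to 48.6). By median rank over the 9 arrays, 1 of 7 subunits, Gabra5, was in the top 5%, against 5.01% of all 14217 genes, and 3 of 7 were above the 50th percentile. Each neighbouring pair in this order had percentile ranges that overlapped. Gabra5 was above Gabrb1 and Gabrb1 above Gabrd on 9 of 9 arrays, whereas Gabrd was above Gabrb2 on 8, Gabrb2 above Gabra4 on 6, Gabra4 above Gabra3 on 7, and Gabra3 above Gabra2 on only 4.

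**Figure D1:**
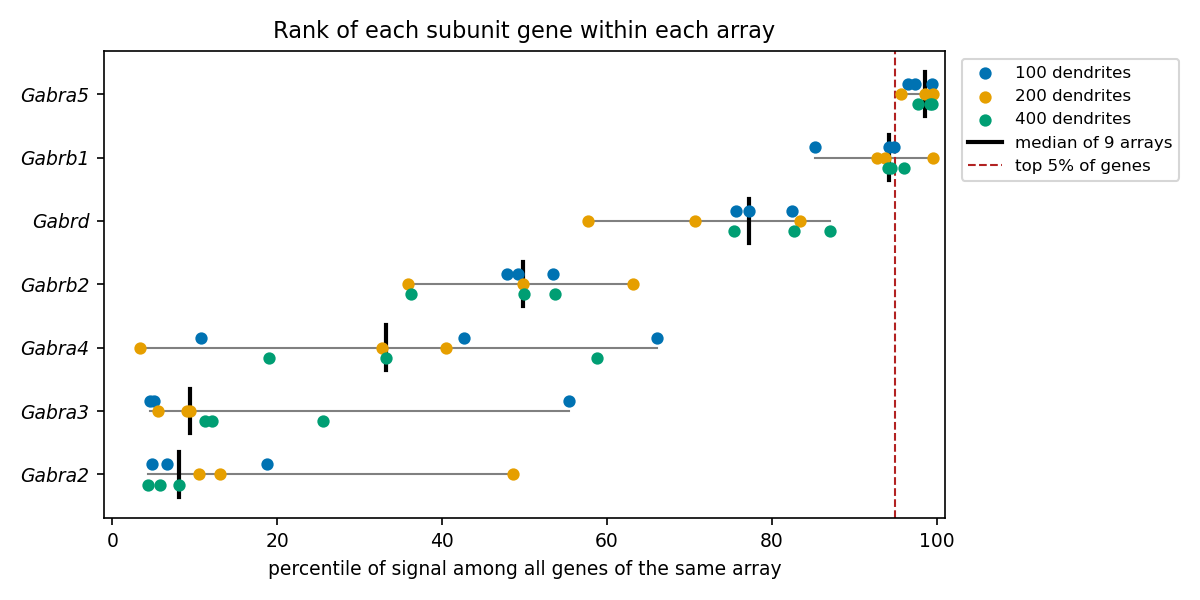
Percentile of each subunit gene's signal among the 14217 genes of the same array (x axis) for the 7 genes (y axis). Points are the 9 arrays coloured by pool size, the grey line spans them, the black bar is their median and the dashed line marks the top 5%. Gabra5 lies right of that line on 9 arrays and Gabrb1 on 2, while Gabra4, Gabra3 and Gabra2 spread over much of the lower part of the scale.

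Gabra5, the alpha subunit of mostly extrasynaptic receptors, had signals of 10.95, 12.18 and 10.78 in the 3 pools of 100 dendrites (mean 11.30 ± 0.76, SD, n = 3). They were 10.51, 11.57 and 12.58 in the pools of 200 (11.55 ± 1.03) and 11.21, 12.45 and 12.04 in those of 400 (11.90 ± 0.63). The 3 pool sizes overlapped, and the highest and the lowest array were both pools of 200 dendrites. Over 9 arrays the mean was 11.59 ± 0.76, an SD larger than that of 79.7% of genes.

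Gabrb1, a beta subunit, had signals of 10.16, 10.31 and 9.09 in the pools of 100 dendrites, 10.04, 9.88 and 12.51 in those of 200, and 10.10, 10.37 and 10.68 in those of 400. One array, replicate 3 of the 200-dendrite pools, stood well above the other 8, which lay between 9.09 and 10.68. The SD within a pool size was therefore 1.47 for 200 dendrites and 0.29 for 400. The mean over 9 arrays was 10.35 ± 0.92, with an SD above that of 90.4% of genes, the widest spread of the 7 subunits. On that same array the gene values of Gabra5 and Gabrb2 were also at their highest and that of Gabrd at its lowest. Of the Gabrd probe sets, only 1395270_x_at was at its lowest there, at 7.85, with 1395269_s_at at 8.69 and 1369048_at at 6.47. Of the Gabrb2 probe sets, only 1369818_at was at its highest there. The gaps of GAPDH, 2.50, and of beta-actin, 1.29, ranked 2 and 3 from the highest of the 9 arrays. Among astrocyte markers, Gfap (6.33), S100b (6.44) and Gja1 (6.28) were at their lowest on that array. Aqp4 (7.05) and Slc1a2 (6.97) were at their highest there, and the rest of that list was at neither extreme. Any link to the subunit signals was not tested.

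Gabrb2, the other beta subunit measured, had gene values of 7.49, 7.70 and 7.56 in the pools of 100, 7.57, 7.09 and 8.04 in those of 200 and 7.59, 7.08 and 7.74 in those of 400. The mean was 7.54 ± 0.30 (SD, n = 9), and only 8.0% of genes varied less. This narrow spread did not hold for its 2 probe sets. Probe set 1369818_at ran from 6.62 to 8.47 and 1377773_at from 5.74 to 8.57. They moved in opposite directions, with r = -0.70 over 9 arrays, and the first was higher on 7 arrays. In replicate 2 of the 200-dendrite pools they stood at 8.44 and 5.74, while in replicate 1 of the 400-dendrite pools they stood at 6.62 and 8.57. Their median is thus steadier than either, and the gene value of Gabrb2 describes neither probe set alone.

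Gabrd, the delta subunit of extrasynaptic receptors, had gene values of 8.50, 8.64 and 8.92 in the pools of 100 dendrites, 8.32, 8.96 and 7.85 in those of 200, and 9.21, 8.56 and 8.92 in those of 400. The mean was 8.65 ± 0.41 (SD, n = 9), and the pool sizes overlapped. Its 3 probe sets disagreed in level. Probe sets 1395269_s_at and 1395270_x_at averaged 8.86 ± 0.23 and 8.85 ± 0.55, whereas 1369048_at averaged 6.38 ± 0.35 and was below both on 9 of 9 arrays. In percentiles of probe sets these were medians of 81.2, 80.3 and 26.2. On this platform the suffixes s and x mark probe sets whose probes may also match other transcripts. The rank of Gabrd rests on those 2 probe sets, and that of 1369048_at would place the gene among the low signals.

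**Figure D2:**
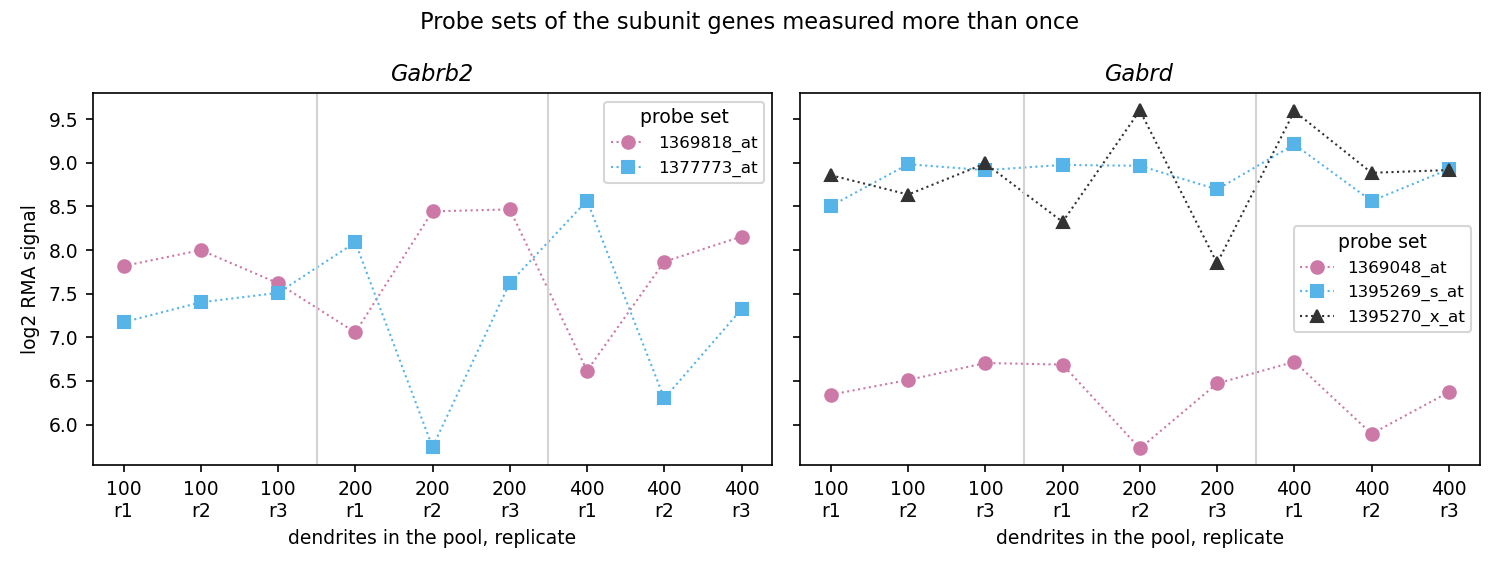
Log2 RMA signal (y axis) of the 2 probe sets of Gabrb2 (left) and the 3 of Gabrd (right) on each of the 9 arrays (x axis, dendrites in the pool and replicate). Dotted lines join the values of a probe set and imply no order. The Gabrb2 probe sets cross, with r = -0.70, and 1369048_at of Gabrd lies below the other 2 on every array.

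Probe sets of one gene often failed to vary together on these arrays. Across 3061 genes with exactly 2 probe sets, the correlation between them over 9 arrays had a median of 0.02, and 48.0% of the genes had a value below 0. How often r was as low as the -0.70 of Gabrb2, or levels differed as for Gabrd, was not examined. The 3 pairs of Gabrd probe sets had r = 0.41, 0.41 and -0.31. Differences from array to array in the 5 subunits measured by 1 probe set thus have no second probe set behind them.

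The alpha subunits other than Gabra5 had median percentiles below 50. Gabra4, the usual partner of delta in granule cells, had signals of 8.12, 7.32 and 5.98 in the pools of 100 dendrites, 5.44, 7.25 and 6.97 in those of 200, and 7.0, 7.89 and 6.41 in those of 400. It spread over 2.69 within the 9 arrays, with an SD of 0.87 that exceeded that of 87.7% of genes, and each pool size held both low and high arrays. Gabra4 lay above Gabra3 and Gabra2 in median rank at every pool size.

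Gabra3, an alpha subunit best known from cortex and brainstem nuclei, had signals of 7.76, 5.51 and 5.59 in the pools of 100, 5.88, 5.87 and 5.61 in those of 200, and 6.02, 6.02 and 6.71 in those of 400. Apart from replicate 1 of the 100-dendrite pools, the arrays lay between 5.51 and 6.71. That array also had the highest Gabra4 signal. Its GAPDH gap of 2.99 was the largest of the 9, and its beta-actin gap of 1.09 ranked 4 from the highest.

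Gabra2, an alpha subunit of synaptic receptors, had signals of 5.72, 5.54 and 6.39 in the pools of 100, 6.10, 7.54 and 5.96 in those of 200, and 5.55, 5.62 and 5.81 in those of 400. Replicate 2 of the 200-dendrite pools stood above the other 8 arrays, which lay between 5.54 and 6.39. The 400-dendrite pools differed little among themselves, with an SD of 0.13 against 0.87 for 200 dendrites. Their values lay at percentiles 4.33 to 8.07 of all genes. Whether signals as low as those of Gabra2 and Gabra3 stand above background was not tested. The lowest subunit of an array was Gabra2 on 4 arrays, Gabra3 on 4 and Gabra4 on 1.

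**Figure D3:**
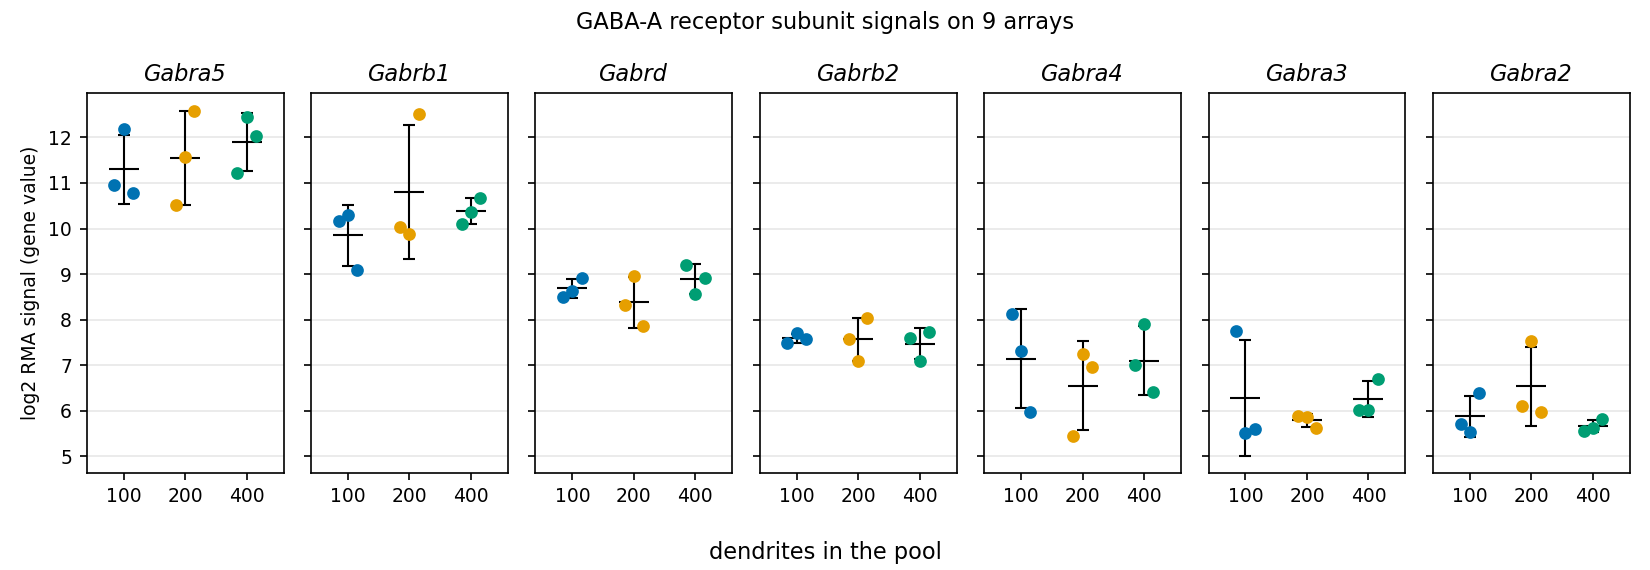
Log2 RMA signal of the 7 subunit genes (y axis) against the dendrites in the pool (x axis). Points are the 9 arrays in order of replicate number, and the bars are the mean ± SD of 3 arrays. Pool sizes overlap for each gene except Gabra3 and Gabra2 between 200 and 400 dendrites, and single arrays stand apart for Gabrb1 (12.51), Gabra3 (7.76) and Gabra2 (7.54).

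Subunit signals were compared between the 3 pool sizes, and differences were tested with limma over all genes. No subunit passed in any comparison. At an adjusted p under 0.05, 0 of 7 subunits were called for 400 against 100, 200 against 100 and 400 against 200 dendrites, where 0.0% of the 14217 genes were called in each. At an unadjusted p under 0.05 it was again 0 of 7, against 2.41%, 3.03% and 2.3% of genes. The 10 probe sets gave 0 calls as well, against 0.0% of the 31042 probe sets in each comparison. The moderated F over the 3 pool sizes and the slope per doubling of pool size called 0 subunits, 0 of 14217 genes and 0 of 31042 probe sets, with 307 and 388 genes at an unadjusted p under 0.05, none of them a subunit. With 3 arrays per pool size, the 21 differences had 95% intervals of ± 0.81 to ± 1.39, and 21 of 21 included 0. These intervals are not adjusted for the number of genes tested. Differences smaller than them could not be called, and the adjusted threshold needed larger ones still.

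For 400 against 100 dendrites the largest difference among the subunits was that of Gabra5, 0.60 higher (95% interval -0.65 to 1.85, limma adjusted p = 0.999), followed by Gabrb1, 0.53 higher (-0.86 to 1.92). Leaving out 1 array at a time gave 0.32 to 1.03 for Gabra5 and 0.15 to 0.76 for Gabrb1, and Gabra5 was below Gabrb1 without replicate 2 of the 400-dendrite pools (0.32 and 0.54) or without replicate 1 of the 100-dendrite pools (0.42 and 0.69). Gabrd differed by 0.21, Gabra2 by -0.22, Gabrb2 by -0.12, Gabra3 by -0.036 and Gabra4 by -0.039. The median over the 7 subunits was -0.036, and it was 0.016 over all genes. For 200 against 100 dendrites the largest was Gabrb1, 0.96 higher (-0.43 to 2.35, limma adjusted p = 1.0). Without replicate 3 of the 200-dendrite pools it was 0.11. Gabra3 differed by -0.50 in that comparison, and by 0.24, with the sign turned, without replicate 1 of the 100-dendrite pools.

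The comparison of 400 against 200 dendrites held the smallest unadjusted p of the subunits, that of Gabra2, which was 0.87 lower in the larger pools (difference -0.87, 95% interval -1.87 to 0.12, limma unadjusted p = 0.0807, adjusted p = 0.999). Without replicate 2 of the 200-dendrite pools the difference was -0.37. The 3 arrays of 400 dendrites lay below the 3 of 200 for Gabra2, as for 3.18% of all genes, and above them for Gabra3, as for 3.59% of all genes. Thus 1 of 7 subunits was separated in each direction. Both had low signals, at median percentiles of 8.07 for Gabra2 and 9.42 for Gabra3. In the other comparisons 0 of 7 were separated in either direction, where 3.67% of genes were higher and 2.58% lower for 400 against 100, and 4.05% higher and 3.75% lower for 200 against 100. Gabra4 and Gabrd differed by 0.55 and 0.52 between 400 and 200 dendrites, with overlapping arrays. The median over the 7 subunits was -0.017 for 200 against 100 and 0.35 for 400 against 200, beside 0.0017 and 0.012 over all genes.

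**Figure D4:**
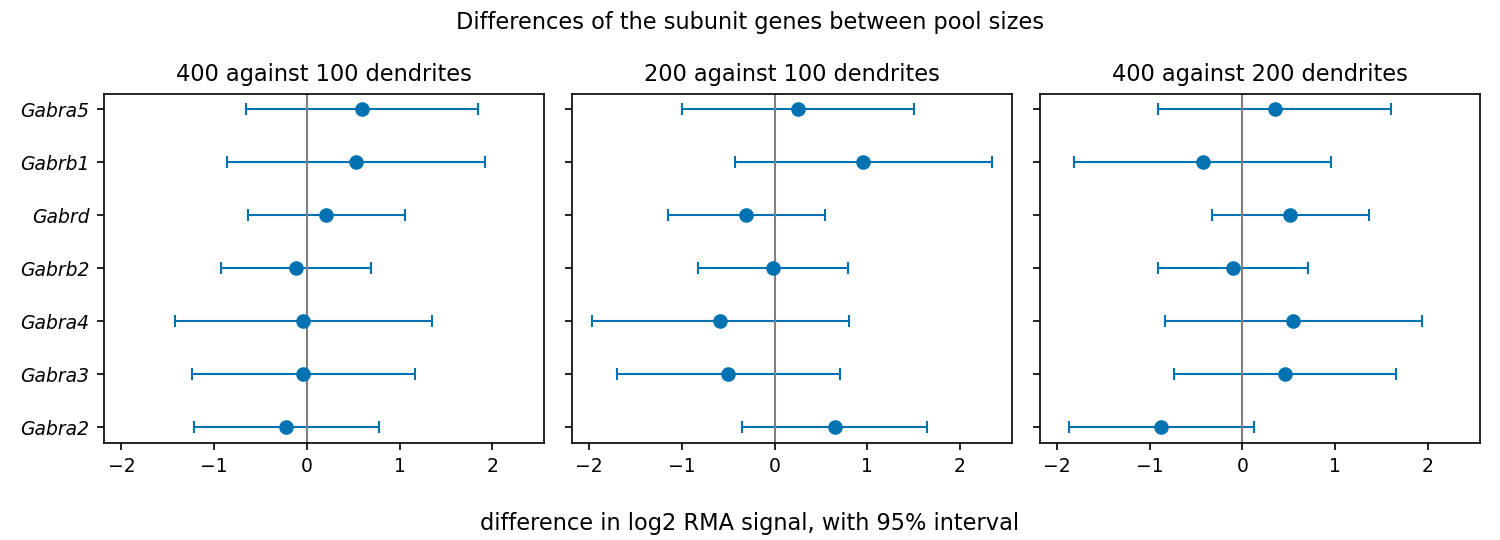
Difference in log2 RMA signal between pool sizes (x axis) for the 7 subunit genes (y axis) in the 3 comparisons, with 95% intervals from limma. Of the 21 intervals, 21 include 0, and the largest differences are those of Gabrb1 (0.96) for 200 against 100 and Gabra2 (-0.87) for 400 against 200 dendrites.

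The order of the subunits by median percentile differed little between pool sizes. Gabra5, Gabrb1, Gabrd, Gabrb2 and Gabra4 came in this order at each of the 3 pool sizes. Gabra5 stood at 97.4, 98.6 and 99.2 and Gabrb1 at 94.3, 93.8 and 94.5 for 100, 200 and 400 dendrites. Only Gabra2 and Gabra3 changed places, with Gabra2 at 6.68, 13.1 and 5.82 and Gabra3 at 5.10, 9.13 and 12.1.

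Whether subunits varied together between arrays was asked for the 21 pairs of genes. Pearson correlations ran from -0.71 to 0.69 with a median of -0.10, and 8 were positive. None passed after adjustment over the 21 pairs (exact permutation test, two-sided, 362880 pairings, smallest adjusted p = 0.281 for Pearson and 0.290 for Spearman, with 2 pairs at an unadjusted Pearson p under 0.05). The highest was Gabra5 with Gabrb1, an alpha and a beta subunit, at r = 0.69 (exact permutation p = 0.0134, adjusted p = 0.281) and rho = 0.80 (exact permutation p = 0.0138, adjusted p = 0.290). It was 0.72 without the 2 arrays farthest from the median of Gabra5, 0.73 after centring within pool size, and 0.62 without replicate 3 of the 200-dendrite pools, where both genes peaked. Gabrb1 with Gabrd gave the lowest, r = -0.71 (exact permutation p = 0.0458, adjusted p = 0.481) with rho = -0.38 (exact permutation p = 0.313, adjusted p = 0.841). It fell away to -0.005 without the 2 farthest arrays and to -0.19 without replicate 3 of the 200-dendrite pools, so it rests on that array, although it was -0.78 after centring within pool size. After that centring the highest pair was Gabra2 with Gabrd at 0.79, which was 0.18 without centring. Gabra4 and Gabrd, the known partners, had r = -0.019.

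**Figure D5:**
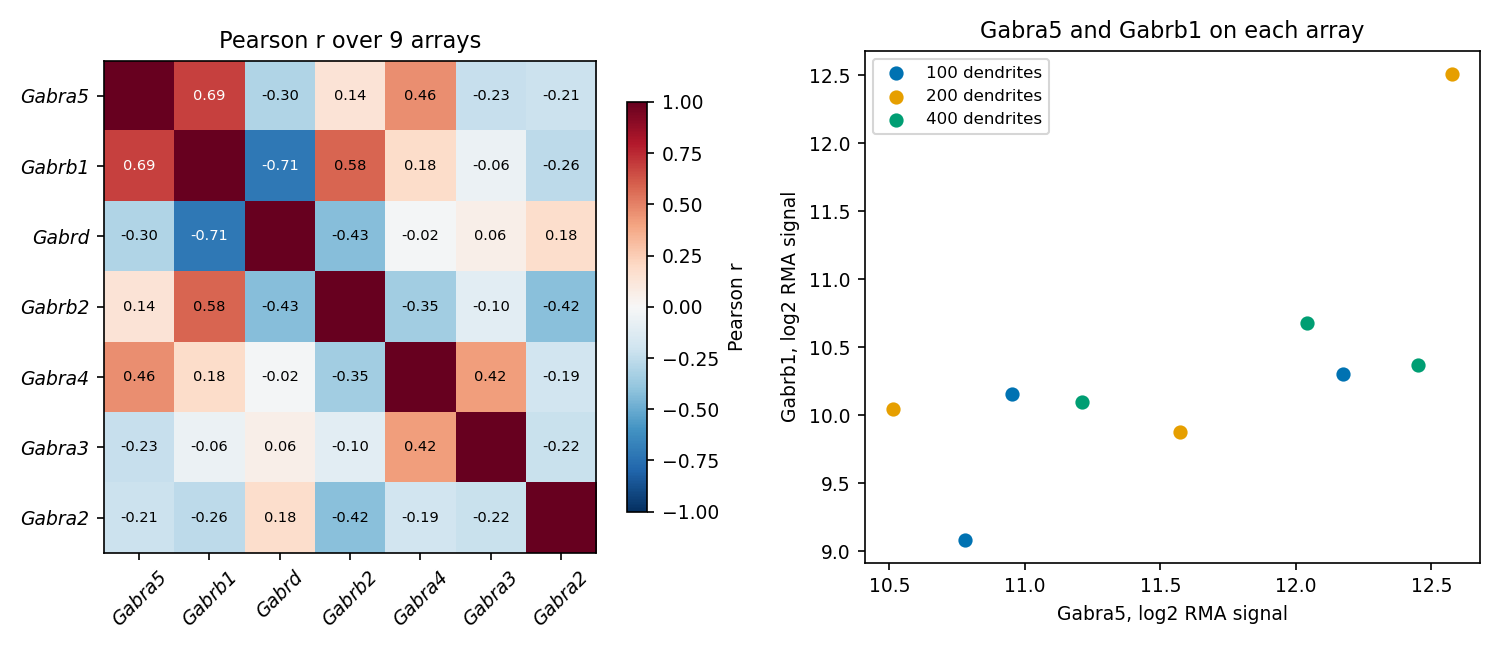
Left, Pearson r over 9 arrays for each pair of the 7 subunit genes, with the value in each cell. Right, log2 RMA signal of Gabrb1 (y axis) against Gabra5 (x axis) on each array, coloured by pool size, with replicate 3 of the 200-dendrite pools at the upper right and r = 0.69 over all 9 arrays.

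Subunit genes that lie beside each other were also compared in rank. In the gene order of the RefSeq annotation of GRCr8, used here for order alone, Gabrb1 and Gabra4 are neighbours, and Gabra2 follows Gabra4 after 1 other protein-coding gene. Gabrb1 was at percentile 94.3 and Gabra4 and Gabra2 at 33.3 and 8.07, and Gabrb1 and Gabra4 had r = 0.18. Gabrg1, a gamma subunit that follows Gabra2, stood at 47.8 (12.9 to 90.9). Gabra5 lies next to Gabrg3, another gamma subunit, which stood at percentile 33.8. Gabrb2 at 49.8 lies next to Gabra6, the alpha subunit of cerebellar granule cells, at 32.7, and their percentile ranges over arrays overlapped. Gabrg1, Gabrg3 and Gabra6 are named for their position, a choice made after their values were seen.

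The genes whose signal over 9 arrays was most like that of each subunit are given as a description, being the highest of 14216 correlations. For Gabra5 these were Cys1 and Ccnk (r = 0.95 each) and for Gabrb1 Adcy3 and Ercc5 (0.95 each). For Gabrd they were Dll3 and Nkg7 (0.96 each) and for Gabrb2 Vamp1 (0.97), of synaptic vesicle fusion, and Slc4a10 (0.96), a bicarbonate transporter. For Gabra2 they were LOC100910198 (0.93) and Man1c1 (0.92), for Gabra3 Rybp (0.97) and Zfp800 (0.94), and for Gabra4 Hacd3 (0.94) and Eef1e1 (0.93). Between 4 and 22 genes had r above 0.9 with a given subunit. No subunit was among the 2 most like any other. The gene value of Gabrb2 describes neither of its probe sets alone, and so its correlations do not either. The arrays share their amplification and normalization.

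Other subunits of the receptor family were examined next. Of 12 listed, 9 were measured by a probe set that names them alone, and the other 3 were not analysed here. Of the 9, 0 were in the top 5% and 3 were above the 50th percentile, with a median percentile of 41.1 beside 49.8 for the 7 subunits and 49.9 for all genes. Gabrq, the theta subunit, was highest at 9.76 ± 0.76 (SD, n = 9, percentile 94.0), near Gabrb1 in rank, and was in the top 5% on 2 of 9 arrays. The next was Gabrr1, one of the rho subunits of the retina, at percentile 55.0, and the lowest was Gabrr2, also a rho subunit, at 29.4.

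Among proteins that organise inhibitory synapses, signals ran from low to high. Of 11 genes measured, 1 was in the top 5%, Iqsec3, an exchange factor that binds the scaffold gephyrin, at 10.13 ± 0.69, and the median percentile was 43.5. Nlgn2, the adhesion protein of inhibitory synapses, followed at percentile 78.9, and Slitrk3, another such adhesion protein, was lowest at 7.07. Insyn1, of the dystroglycan complex, had the largest difference of the list between 400 and 100 dendrites (0.46, limma unadjusted p = 0.238). Of 13 genes for transport and turnover of the receptor, 1 was in the top 5%, Ap2m1, the clathrin adaptor subunit that binds beta subunits for endocytosis, at 10.98 ± 0.60 (percentile 97.2). Kif5a, a kinesin that carries the receptors, stood at 90.1 and Mkln1, muskelin, at 1.53. Plcl1, a phospholipase-like protein of receptor delivery, had the largest difference in signal between 400 and 100 dendrites, 2.22 (limma unadjusted p = 0.0271), within a spread of 5.45 to 9.78. Ap2m1 was 0.99 higher in that comparison (limma unadjusted p = 0.0351). Thus 2 of the 13 genes were under 0.05, against 2.41% of all genes. After adjustment over all genes 0 of the 13 passed.

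The chloride gradient, kept by transporters, sets the direction of current through the receptor. Of 9 genes of chloride transport measured, 6 were above the 50th percentile and 1 was in the top 5%, with a median percentile of 71.7 against 49.9 for all genes. Slc12a5, the neuronal chloride exporter KCC2, was highest at 10.38 ± 1.30 (percentile 96.6), with values from 9.64 to 11.79 on 8 arrays and 7.43 on replicate 1 of the 100-dendrite pools. Oxsr1, a kinase that acts on such transporters, stood at percentile 86.1 and Clcn3, a chloride transporter of vesicles, at 30.2. Clcn3 had the largest difference between 400 and 100 dendrites, 0.45.

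Genes for making, packaging and clearing GABA had 0 of 7 in the top 5%, 3 above the 50th percentile and a median percentile of 20.4. Slc6a13, a GABA transporter, was highest at 77.0, then Abat, the enzyme that degrades GABA, at 66.2. Slc32a1, given above, was lowest, and Slc6a11, another GABA transporter, had the largest difference between 400 and 100 dendrites, 1.61 (limma unadjusted p = 0.0152). It was the 1 gene of the 7 under 0.05 in that comparison, against 2.41% of all genes. Its signals in the pools of 400 were 6.94, 6.69 and 8.81, and its median percentile was 20.4. Of 4 genes of the GABA-B receptor, the slower metabotropic receptor, 0 were in the top 5%, Gabbr1 stood at percentile 80.1, Gabbr2 at 72.3 and Kctd12, an auxiliary subunit, at 23.7, and Kctd16 had the largest difference, -0.36. Of 4 glycine receptor subunits 0 were in the top 5%, with Glra1 at 75.0, Glra2 at 51.1 and Glrb, the beta subunit, at 11.6, which also had the largest difference, 0.55. In these 7 lists, which hold 57 measured genes, 0 passed the adjusted threshold in any of the 3 comparisons of pool size.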

How the data were processed

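RNA of 9 dendrite pools (3 each of 100, 200 and 400 dendrites) was measured on Affymetrix rat expression arrays after linear amplification. The deposited values are log2 signals, which the authors summarised per probe set with RMA 2.0. The median centring and percentile scaling that the methods name are not in them and served as an alternative. Of 31099 probe sets, 57 Affymetrix controls were set aside and 31042 were analysed without filtering. The platform's table named 1 gene for 20826 of them, several for 436 and none for 9780. Symbols were updated through Entrez IDs for 20758. Probe sets naming a gene alone were combined by their median (14217 genes), and percentiles were taken within each array. No genome was used, so no positions or sequences are given.

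Pool sizes were compared with limma 3.58.1 in R 4.3.3, in 1 model of 9 arrays, two-sided, with Benjamini-Hochberg adjustment over all probe sets or genes and a threshold of 0.05. The script was tested on simulated data. Correlations used exact permutation tests over 9 arrays in Python 3.11.15 (scipy 1.17.1, numpy 2.4.6, pandas 2.3.3). Plots were made in matplotlib 3.10.9. The labels do not say whether replicates came from separate cultures, so p-values measure the spread between these samples, and their number limits the precision. Same-numbered arrays of different pool sizes had deviations correlated at -0.20 to 0.09 (9 pairs), so replicate numbers were not taken as pairs. The members and gene lists were chosen with earlier results of these data known. Named were all 7 subunits and their probe sets, the 2 genes most correlated with each, and per list the 2 highest, the lowest and the one differing most between 400 and 100 dendrites. Alternatives were other normalizations, variance settings and filters, a replicate block, the methods' t-test, other gene values and leaving out each array.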

Additional observations from a re-analysis of the deposited data

Results flagged for a closer look

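Among 37 items examined over 9 arrays (the 7 subunits, the 5 probe sets of Gabrb2 and Gabrd, and the named genes of the other receptor lists), 5 had 1 array whose gap to the nearest other exceeded Dixon's critical value of 0.493 of the whole range. Normally distributed values would exceed it in about 1 in 20 items. How often it was exceeded over all genes of these arrays was not examined, so the count has no measured background. The items are also not independent, since the gene values of Gabrb2 and Gabrd come from their probe sets. Of the 5 items, 2 were subunits. Gabrb1 reached 12.51 in replicate 3 of the 200-dendrite pools, with the next array at 10.68, and Gabra2 reached 7.54 in replicate 2 of the 200-dendrite pools, with the next at 6.39. Slitrk3 was high at 6.67 and Oxsr1 low at 7.72 in replicate 1 of the 200-dendrite pools, and Slc12a5 was low at 7.43 in replicate 1 of the 100-dendrite pools. The 5 items fell on 4 arrays.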

How the results depend on the processing

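In the 73 alternative fits over probe sets, limma or the methods' t-test called 0 probe sets in each comparison of pool size. With the replicate number as a block the 21 subunit differences could not change, because every pool size has the same replicate numbers. Their being the same as without it therefore tests nothing. The fit with the block called 0 probe sets in each comparison, and no call changed, the arrays sharing only a number. Of 303 alternative values of the subunit differences, 0 passed the adjusted threshold (smallest adjusted p = 0.938) and 21 had the opposite sign to the value reported. Many of the 303 could not differ from the value reported. The block and the variance setting leave a difference as it is, as does omitting an array of a pool size not compared. When a gene was read from its brightest probe set, 200 against 100 dendrites gave 0.18 for Gabrb2 and 0.077 for Gabrd. The other 19 came from leaving out 1 array. For 400 against 100 dendrites these ranges were -0.39 to 0.033 for Gabra2, -0.42 to 0.70 for Gabra3, -0.62 to 0.45 for Gabra4 and -0.25 to 0.079 for Gabrb2. For 200 against 100 they were -0.89 to 0.24 for Gabra3, -0.26 to 0.77 for Gabra5 and -0.25 to 0.22 for Gabrb2, and for 400 against 200 they were -0.0096 to 0.90 for Gabra4, -0.17 to 0.86 for Gabra5, -0.89 to 0.42 for Gabrb1 and -0.34 to 0.14 for Gabrb2. The cause was not tested. At the top 10% of genes, 2 subunits were counted in place of 1. Of the subunit percentiles, 5 moved by more than the SD over arrays. With the brightest probe set for each gene Gabra5 was at 96.9 and Gabrb1 at 89.9. These genes have 1 probe set each, so their own values stayed the same and only those of other genes changed. With the mean of its probe sets Gabrd was at 62.7. Among the upper part of genes by mean signal alone Gabrb1 was at 88.6 and Gabrd at 55.5. Removing the lower genes lowers a percentile by itself, so those 2 moves test nothing. Correlations of Gabrb1 ran from 0.61 to 0.75 with Gabra5 and from -0.79 to -0.19 with Gabrd when 1 array was left out, a check chosen after seeing the data, and 0 of 21 pairs passed in any of these or under quantile normalization. Single arrays, and probe sets that disagree, limit what 9 arrays show.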
